A study of Oryctolagus cuniculus with 8 samples.

Results

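The ganglion cell genes described here are a list of 10 symbols known to mark retinal ganglion cells: *RBPMS*, *POU4F1*, *POU4F2*, *SNCG*, *THY1*, *NEFL*, *NEFM*, *NEFH*, *ISL1* and *STMN2*. Of these 10 genes, 9 were found among the 19293 protein-coding genes of the table (25666 genes in all), and all 9 were among the 12204 genes that could be tested. *NEFM* was not analysed here. RNA had been sequenced from dissected retinas of wild-type male Chinchilla rabbits, about 10 months old, with 2 retinas for each of 4 diets kept up for 6 months. The normal diet (ND) was standard chow, the high-fat diet (HFD) held an additional 10% lard and 0.5% cholesterol, the high-sucrose diet (HSD) an additional 40% sucrose, and the high-fat plus high-sucrose diet (HFSD) both fat additions of the HFD with sucrose at 35%. All groups shared the strain, the sex and the chow. The labels number the retinas of a diet 1 and 2 and do not say whether these came from different animals, so P values measure only the spread between these retinas.

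Retinal ganglion cells are the output neurons of the retina. Their bodies lie in the innermost cell layer, their axons form the nerve fibre layer and the optic nerve, and they are the cells lost in glaucoma and other optic neuropathies. The POU4F (BRN3) transcription factors and ISL1 establish their identity, RBPMS is an RNA-binding protein used to count them, SNCG (γ-synuclein) and THY1 are abundant in their cytoplasm and on their surface, STMN2 (stathmin-2) maintains axons, and NEFL, NEFM and NEFH are the subunits of the neurofilaments that fill large axons. Several of these genes are not exclusive to ganglion cells: ISL1 is also made by bipolar and starburst amacrine cells, and neurofilaments also by horizontal cells.

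The values are FPKM, the fragments of a gene relative to its length and to the depth of its library, as deposited. Each library had been divided by a depth that the steps of its values put between 15764577 and 22785832 fragments. Which fragments this total counts is not known, since those summed over genes exceeded it in ND replicate 2 (18161587 against 17706804) and HFD replicate 1 (20430602 against 19970643). The numbers of fragments behind each value could be recovered from the steps of the values and are subject to counting error alone as given here, because duplicates made by PCR cannot be recognised. The 9 genes ranked between 302nd (*SNCG*) and 8447th (*POU4F1*) of the protein-coding genes by mean FPKM, and the lowest single value of any of them, 3.33 FPKM for *POU4F1* in ND replicate 2, rested on 74 fragments. Among the defining markers of other retinal cells, the cone arrestin gene *ARR3* lay between 293 and 476 FPKM, so every library held retinal RNA. Markers of tissue other than neural retina differed between libraries: the muscle genes *ACTA1* and *CKM* reached 105 and 57.1 FPKM in HSD replicate 2 and at most 0.707 in the other libraries.

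The BRN3 genes *POU4F1* and *POU4F2* were the least abundant of the 9 and varied most from retina to retina. *POU4F1*, which encodes BRN3A, had 9.62 and 3.33 FPKM on ND, 6.55 and 4.28 on HFD, 6.78 and 5.78 on HSD, and 8.89 and 10.1 on HFSD. Its paralog *POU4F2*, which encodes BRN3B and is required for ganglion cells to differentiate, had 9.93 and 3.37 FPKM on ND, 7.20 and 4.76 on HFD, 6.57 and 7.36 on HSD, and 8.73 and 10.2 on HFSD. For both genes the ND retinas lay near the top and at the bottom of all 8 retinas, and both HFSD retinas were above both HFD and both HSD retinas while overlapping with ND. The means were 6.48±4.45 in ND and 9.47±0.826 in HFSD for *POU4F1*, and 6.65±4.63 and 9.48±1.07 for *POU4F2* (±s.d., n=2 retinas). On the scale of log2(FPKM + 1), HFSD exceeded ND by 0.62 for *POU4F1* (95% interval −0.28 to 1.53) and by 0.60 for *POU4F2* (−0.32 to 1.51), with adjusted P values of 0.711 and 0.734 (limma, Benjamini-Hochberg adjustment over the 12204 genes tested).

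*RBPMS* had 27.8 and 11.6 FPKM on ND, 20.04 and 13.2 on HFD, 14.8 and 15.2 on HSD, and 22.0 and 24.5 on HFSD. ND replicate 1 was the highest and ND replicate 2 the lowest of the 8 retinas, so that all the other diets lay between them. The diets came in the order HSD (14.97±0.286), HFD (16.6±4.85), ND (19.7±11.4) and HFSD (23.2±1.78), and neighbours in that order overlapped. The differences from ND were −0.14 with HFD (95% interval −0.98 to 0.70), −0.25 with HSD (−1.09 to 0.59) and 0.35 with HFSD (−0.50 to 1.19), on the log2 scale.

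*ISL1*, the LIM-homeodomain factor that acts together with POU4F2 in ganglion cells, varied least. It had 21.5 and 16.5 FPKM on ND, 18.2 and 14.4 on HFD, 15.2 and 18.3 on HSD, and 18.2 and 17.7 on HFSD. The highest retina exceeded the lowest 1.497-fold, against 3.02-fold for *POU4F1* and 3.03-fold for *POU4F2*, and all 4 diets overlapped.

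The genes of the cytoplasm, surface and axon were more abundant. *SNCG*, the highest of the 9, had 293 and 187 FPKM on ND, 339 and 237 on HFD, 188 and 180 on HSD, and 256 and 321 on HFSD. Both HSD retinas were below every HFD and HFSD retina, while the lower ND retina lay within the HSD values. *THY1* had 197 and 103 FPKM on ND, 168 and 136 on HFD, 141 and 119 on HSD, and 178 and 180 on HFSD. *STMN2* had 130 and 74.8 FPKM on ND, 116 and 91.7 on HFD, 101 and 85.8 on HSD, and 127 and 138 on HFSD. In both genes ND replicate 2 was the lowest of all retinas, and the HFSD retinas lay above those of HFD and HSD.

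The neurofilament genes departed from this order. *NEFL*, the light subunit on which the filament is built, had 192 and 157 FPKM on ND, 185 and 178 on HFD, 137 and 107 on HSD, and 159 and 185 on HFSD. The HSD retinas were the lowest 2 of the 8 and did not overlap with any other diet. *NEFH*, the heavy subunit, had 77.1 and 49.6 FPKM on ND, 70.0 and 57.3 on HFD, 56.6 and 45.5 on HSD, and 65.1 and 72.7 on HFSD. For *NEFH* the HSD retinas were below those of HFD and HFSD and overlapped with ND. *NEFL* was the only member whose HSD retinas both lay below both ND retinas, a pattern found in 19.7% of all genes tested.

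**Figure D1:**
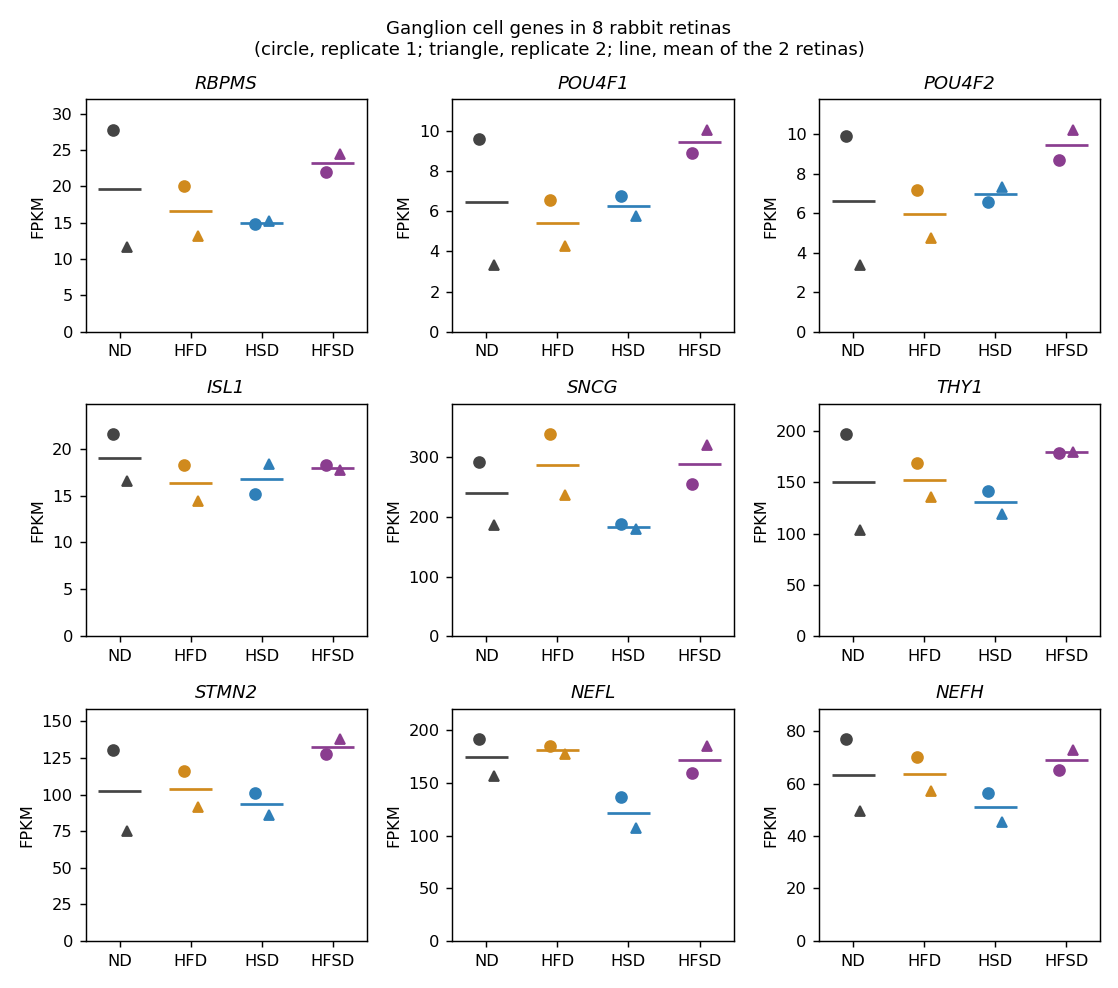
FPKM of the 9 ganglion cell genes (y axis, linear from 0, one panel a gene) by diet (x axis), with circles for replicate 1, triangles for replicate 2 and a line at the mean of the 2 retinas. The ND retinas are far apart in most panels, for example 9.62 and 3.33 FPKM for *POU4F1*, and the HSD retinas of *NEFL* (137 and 107 FPKM) lie below all others.

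Retina by retina, the genes moved together. Each gene was centred on its own mean over the 8 retinas on the log2(FPKM + 1) scale. ND replicate 1 was above the mean for 9 of 9 genes and the highest retina for 5, and ND replicate 2 was below the mean for all 9 and the lowest for 5. Over all genes tested, ND replicate 1 was the highest of the 8 in 9.98% and ND replicate 2 the lowest in 12.9%. The median of the 9 centred values was 0.34 in ND replicate 1 and −0.50 in ND replicate 2, 0.16 and −0.21 in the HFD retinas, −0.10 and −0.30 in HSD, and 0.25 and 0.38 in HFSD. The 2 ND retinas thus spanned most of the range in which the other 6 retinas lay. The same median over all genes tested stayed between −0.0066 and 0.015.

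**Figure D2:**
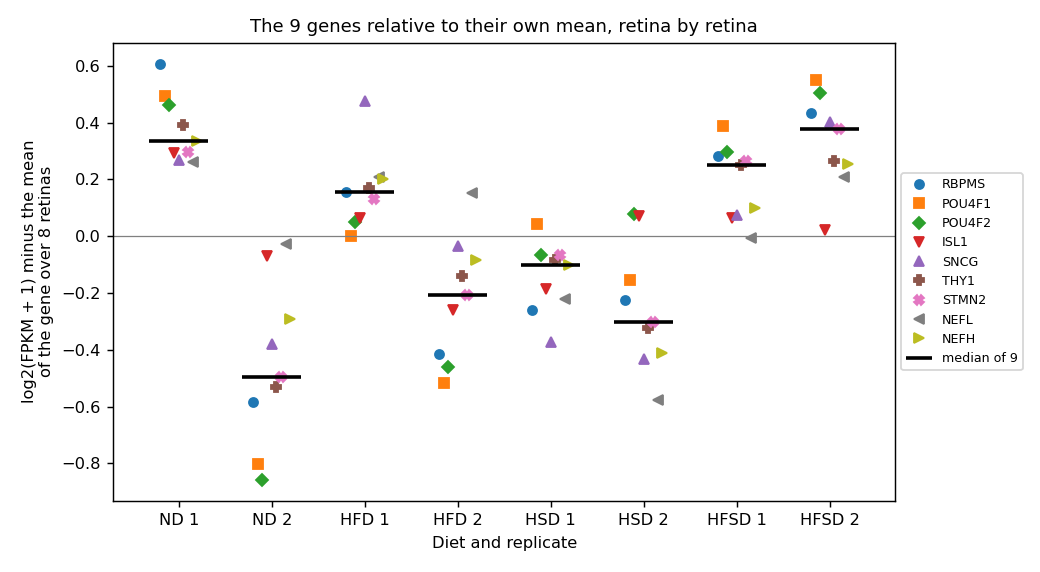
Each point is log2(FPKM + 1) of a gene minus its mean over the 8 retinas (y axis), for each retina (x axis), with black lines at the median of the 9 genes. All 9 points lie above 0 in ND replicate 1 and below 0 in ND replicate 2, with medians of 0.34 and −0.50.

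The difference between the ND retinas was larger than counting error for every gene. The ratio of ND replicate 1 to ND replicate 2 was 2.94 for *POU4F2* (exact 95% interval 2.21 to 3.96, from 208 and 64 fragments), 2.89 for *POU4F1* (2.21 to 3.80) and 2.39 for *RBPMS* (1.96 to 2.94). It was 1.90 for *THY1* (1.79 to 2.03), 1.74 for *STMN2* (1.67 to 1.82), 1.57 for *SNCG* (1.495 to 1.65) and 1.55 for *NEFH* (1.48 to 1.63). The smallest ratios were those of *ISL1*, 1.30 (1.19 to 1.42), and *NEFL*, 1.22 (1.19 to 1.26). The BRN3 genes and *RBPMS* thus had the largest ratios, and *ISL1* and *NEFL* the smallest. The median size of the difference between the retinas of a diet over the 9 genes was 0.79 on ND, 0.34 on HFD, 0.23 on HSD and 0.16 on HFSD, against 0.19, 0.23, 0.14 and 0.13 over all genes tested (log2 scale). Replicate 1 was the higher retina for 9 of 9 genes in ND and in HFD, for 6 in HSD and for 1 in HFSD.

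In such whole-retina RNA, fewer ganglion cells and less RNA of these genes per ganglion cell cannot be told apart. Within a retina, some ratios between the genes held while the levels moved. *POU4F1* to *POU4F2* lay between 0.785 and 1.03 in all 8 retinas, and *STMN2* to *THY1* between 0.663 and 0.767. *NEFL* to *NEFH* lay between 2.35 and 3.16. By contrast, *NEFL* to *POU4F1* was 47.0 in ND replicate 2 and 41.5 in HFD replicate 2, the retinas with the least *POU4F1*, 28.2 in HFD replicate 1 and between 17.9 and 20.2 in the remaining 5 retinas. *ISL1* to *POU4F2* was 4.90 in ND replicate 2 and between 1.73 and 3.02 in the others. The BRN3 gene is the denominator of both ratios, so its low values raise them. *NEFL* to *RBPMS*, which holds no BRN3 gene, was also highest in ND replicate 2 and HFD replicate 2. It was 13.5 in each of these and between 6.90 and 9.27 in the others.

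**Figure D3:**
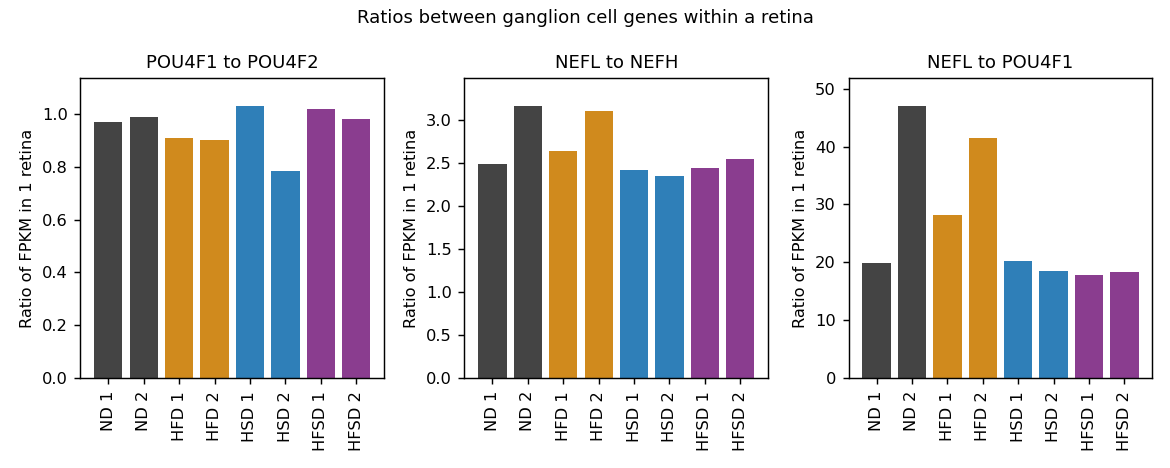
Ratio of the FPKM of 2 genes within each retina (y axes, linear from 0), for *POU4F1* to *POU4F2*, *NEFL* to *NEFH* and *NEFL* to *POU4F1*, with one bar a retina coloured by diet. The first ratio stays between 0.785 and 1.03, and the third reaches 47.0 in ND replicate 2 and 41.5 in HFD replicate 2 against 28.2 or less elsewhere.

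Each diet was compared with ND to ask whether it altered ganglion cell transcripts. In HFD, 0 of the 9 genes had an adjusted P under 0.05 (limma, smallest adjusted P=0.998), where 0.00819% of all genes tested did, and 0 had an unadjusted P under 0.05, against 4.31%. Of the 9 genes, 5 were higher (51.2% of all genes) and 4 lower, with a median difference of 0.03 (all genes 0.0063). The largest were 0.28 for *SNCG* (95% interval −0.31 to 0.87) and −0.21 for *ISL1* (−0.62 to 0.20). In all 9 genes the HFD retinas overlapped with the ND retinas, whereas 25.9% of all genes tested did not overlap.

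In HSD, 7 of the 9 genes were lower and 2, *POU4F1* and *POU4F2*, higher than in ND (49.5% of all genes were higher), with a median difference of −0.17 (all genes −0.0018). None had an adjusted P under 0.05 in limma (0.0574% of all genes did). *NEFL* differed by −0.52 (95% interval −0.90 to −0.13, adjusted P=0.533, limma). It was the only one of the 9 with an unadjusted P under 0.05, a limit that 7.2% of all genes tested passed. Its means were 174±24.7 FPKM in ND and 122±21.3 in HSD. The difference of *NEFL* was −0.34 without HSD replicate 2, the library that carried muscle RNA, and −0.37 without ND replicate 1, and in both fits it no longer had an unadjusted P under 0.05. It was −0.69 without HSD replicate 1 and −0.66 without ND replicate 2. Without HSD replicate 2, 3 of the 9 genes were higher than in ND, with a median of −0.13. Of the other axonal genes, *NEFH* differed by −0.28 (−0.80 to 0.24) and *STMN2* by −0.08 (−0.67 to 0.51), and *SNCG* differed by −0.35 (−0.94 to 0.25).

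In HFSD, 7 of the 9 genes were higher than in ND (49.2% of all genes), with a median difference of 0.33 (all genes −0.0040). None had an adjusted P under 0.05 in limma (smallest adjusted P=0.698, 0.0164% of all genes called) and none an unadjusted P under 0.05 (8.07% of all genes). *STMN2* was higher by 0.42 (95% interval −0.17 to 1.01) and *THY1* by 0.33 (−0.32 to 0.98). *ISL1* and *NEFL* were within 0.07 of ND, with intervals of −0.48 to 0.34 and −0.40 to 0.37. The intervals of the 3 comparisons had a median width of 1.18 on the log2 scale.

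The 3 comparisons share the ND retinas, and their direction rested on them. Without ND replicate 1, 8 of the 9 genes were higher with HFD, 7 with HSD and 9 with HFSD, with medians of 0.46, 0.31 and 0.79. Without ND replicate 2, 0, 0 and 1 of the 9 were higher, with medians of −0.38, −0.59 and −0.13. In these fits the lone ND retina is assumed to vary like the other groups. The genes with an unadjusted P under 0.05 then numbered 4, 2 and 7 without ND replicate 1 (5.3%, 10.3% and 12.8% of all genes) and 3, 6 and 0 without ND replicate 2 (7%, 7.53% and 6.19%), and 0 had an adjusted P under 0.05 in any of these fits (limma). Leaving out single retinas in turn changed the sign of 8 of the 9 genes with HFD, 7 with HSD and 8 with HFSD. *NEFL* in HSD (−0.69 to −0.34) and *SNCG* in HSD (−0.67 to −0.02) were lower than ND in all such fits, as was *ISL1* in HFD (−0.39 to −0.03), and *STMN2* in HFSD (0.02 to 0.82) was higher.

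**Figure D4:**
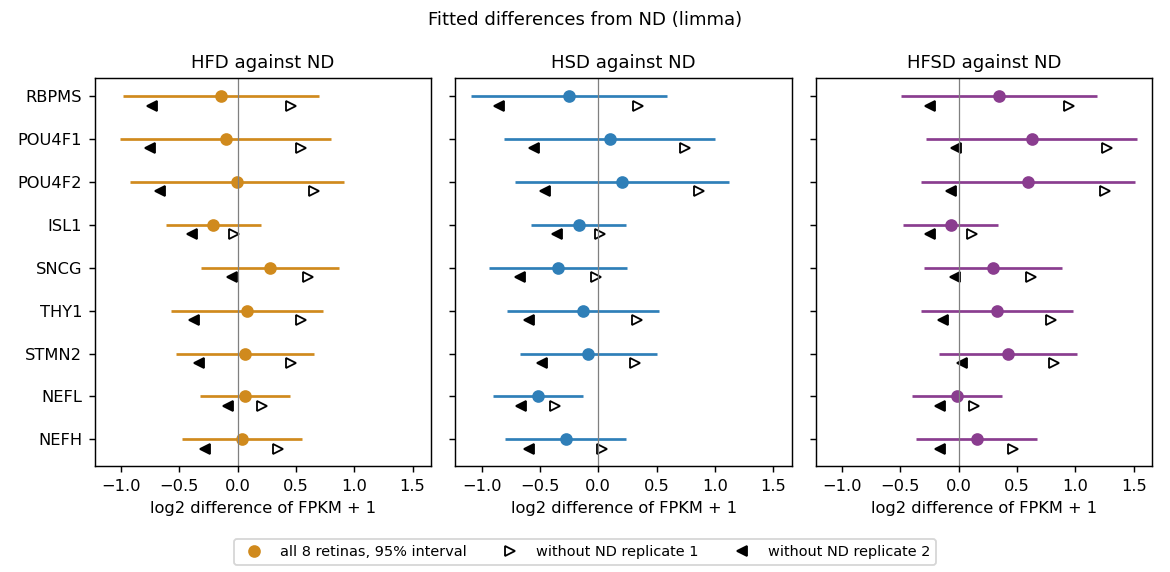
Fitted difference from ND in log2(FPKM + 1) (x axis) for each gene (y axis) in HFD, HSD and HFSD, with circles and 95% intervals from all 8 retinas, and triangles for the difference without ND replicate 1 (open) or without ND replicate 2 (filled). The open triangles lie to the right of the filled ones for all 9 genes, and the interval of *NEFL* in HSD (−0.90 to −0.13) is the only one that leaves out 0.

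HFSD was also compared with each single diet, a comparison chosen after the values were seen that uses no ND retina in its difference. Against HSD, 9 of the 9 genes were higher in HFSD (52.4% of all genes), with a median difference of 0.50, and for 8 genes both HFSD retinas lay above both HSD retinas (18.5% of all genes). The exception was *ISL1*. None of the 9 had an adjusted P under 0.05 (limma, smallest adjusted P=0.9998, 0.0% of all genes called), and 2 had an unadjusted P under 0.05, against 2.75% of all genes: *SNCG*, higher by 0.64 (95% interval 0.05 to 1.23), and *NEFL*, higher by 0.50 (0.11 to 0.88) and by 0.32 without HSD replicate 2. Against HFD, 8 of the 9 were higher (49.0% of all genes), with a median of 0.24, and for 5 genes (*RBPMS*, *POU4F1*, *POU4F2*, *THY1* and *STMN2*) both HFSD retinas lay above both HFD retinas (24.9% of all genes). None had an adjusted P under 0.05 (limma, smallest adjusted P=0.408, 0.00819% called) or an unadjusted P under 0.05 (15.1%). These 5 genes lay above both single diets, which was so for 8.3% of all genes tested. The difference was 0.73 for *POU4F1* (−0.18 to 1.63) and 0.49 for *RBPMS* (−0.35 to 1.33). Without HFD replicate 2 these were 0.47 and 0.20, and without HFD replicate 1 they were 0.99 and 0.77.

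With 4 retinas on each side, the diets with sucrose (HSD and HFSD) were compared with those without, and the diets with fat (HFD and HFSD) with those without. For sucrose, 5 of the 9 genes were higher (48.7% of all genes) and 4 lower, with a median of 0.06, and none had an adjusted P under 0.05 (limma, smallest adjusted P=0.242, 0.344% of all genes called). *NEFL* differed by −0.30 (95% interval −0.57 to −0.03) and was the 1 gene with an unadjusted P under 0.05, where 18.3% of all genes passed. Without ND replicate 1, 7 of 9 were higher with sucrose, with a median of 0.29 and 5 at that limit (21.1% of all genes), and without ND replicate 2, 2 of 9 were, with a median of −0.18 and 1 at that limit (14.3%). For fat, 8 of the 9 were higher (52.6% of all genes), with a median of 0.23 (all genes 0.0072), and none had an adjusted P under 0.05 (limma, smallest adjusted P=0.9996, 0.00819% called). *SNCG*, higher by 0.46 (0.04 to 0.88), and *NEFL*, higher by 0.28 (0.01 to 0.55), had an unadjusted P under 0.05, against 3.2% of all genes. Without ND replicate 1, 9 of 9 were higher, with a median of 0.50 and 8 at that limit (5.63% of all genes). Without ND replicate 2, 5 of 9 were higher, with a median of 0.04 and 0 at that limit (3.79%). Without HSD replicate 2, the library with muscle RNA, 0 of the 9 passed that limit for either fat or sucrose. The interaction asks whether the effect of both together departs from the sum of each. It was above 0 for 9 of 9 genes (51.9% of all genes), with a median of 0.40. It was also above 0 for 15 of 17 bipolar and 7 of 7 horizontal cell genes, but for 11 of 21 amacrine and 2 of 10 rod genes. None of the 9 had an adjusted P under 0.05 for it (limma, adjusted P=0.999 for all 9, 0.00819% called) or an unadjusted one (3.74%), and leaving out single retinas turned 3 of the 9 below 0. The interaction takes each ND retina with a positive sign, and its median was 0.05 without ND replicate 1, with 6 of 9 genes above 0 and 0 at an unadjusted P under 0.05 (3.93% of all genes). Without ND replicate 2 it was 0.84, with 9 of 9 above 0 and 6 at that limit (7.26%).

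*POU4F3*, the remaining BRN3 paralog, which marks a subset of ganglion cells and is better known from hair cells of the inner ear, was not among the 10 listed genes. It had 4.98 and 1.21 FPKM on ND, 4.197 and 2.88 on HFD, 4.70 and 4.86 on HSD, and 7.61 and 7.78 on HFSD, from between 11 and 89 fragments. Its HFSD retinas were the highest 2 of the 8. HFSD exceeded ND by 1.26 (95% interval 0.30 to 2.22, adjusted P=0.536, limma), by 1.98 without ND replicate 1 and by 0.54 without ND replicate 2. For the diets with sucrose the difference was 0.81 (0.13 to 1.49, adjusted P=0.213, limma), and it was 1.17 without ND replicate 1 (adjusted P=0.0323, limma) and 0.45 without ND replicate 2 (adjusted P=0.231). *POU4F3* to *POU4F1* ran from 0.363 in ND replicate 2 to 0.857 in HFSD replicate 1.

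Markers of other cells were read beside these differences. Among the genes of amacrine cells, some of which share the ganglion cell layer, *GAD1*, which makes GABA, lay between 54.7 and 62.0 FPKM, the glycine transporter *SLC6A9* between 66.1 and 80.3, and *TFAP2B* between 13.0 and 17.5. ND replicate 1 exceeded ND replicate 2 for 13 of 21 amacrine, 8 of 17 bipolar, 3 of 7 horizontal cell, 2 of 10 rod and 0 of 12 Müller cell genes tested (48.4% of all genes). It did so for 10 of 11 cone, 10 of 10 microglial, 8 of 8 fibroblast, 6 of 10 endothelial and 6 of 11 pigment epithelium genes. Of the genes of astrocytes and myelin, which accompany ganglion cell axons at and beyond the optic nerve head, ND replicate 1 exceeded ND replicate 2 for 7 of 9 and 11 of 12. *GFAP*, the intermediate filament of astrocytes, had 524 and 12.1 FPKM on ND, 216 and 203 on HFD, 2.37 and 1.08 on HSD, and 3.05 and 69.5 on HFSD. *MBP*, myelin basic protein, had 252 and 6.55 FPKM on ND, 172 and 104 on HFD, 4.34 and 4.16 on HSD, and 4.02 and 41.9 on HFSD. *PAX2*, a factor of optic nerve head astrocytes, was at 0 in both HSD retinas and HFSD replicate 1 and reached 2.58 in ND replicate 1.

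The summed FPKM of the 10 astrocyte genes was 1208 and 432 on ND, 1003 and 653 on HFD, 526 and 271 on HSD, and 370 and 501 on HFSD. That of the 12 myelin genes was 1594 and 2127, 2100 and 1769, 975.2 and 859, and 772 and 870. Most of it came from *TF*, which encodes the iron carrier transferrin, is not specific to myelin and had 828 and 2014 FPKM on ND. The 11 myelin genes without *TF*, a sum chosen after the values were seen, had 766 and 113 on ND, 509 and 365 on HFD, 73.3 and 56.5 on HSD, and 74.7 and 175 on HFSD. Rabbit retina carries a band of myelinated fibres beside the optic disc. *GFAP* and *MBP*, like the ganglion cell genes, were higher in ND replicate 1 than in ND replicate 2. Within the other diets, *GFAP*, *MBP* and most of the 9 genes were likewise higher in the same retina: HFD replicate 1 (9 of 9 genes), HSD replicate 1 (6 of 9) and HFSD replicate 2 (8 of 9). Between diets the order differed, since HFD replicate 2 had more *GFAP* and *MBP* than either HFSD retina and less *RBPMS*, *POU4F1* and *POU4F2* than both. The part of the dissected area in the differences between retinas was not tested. The pigment epithelium gene *RPE65* was 119 and 74.6 FPKM in the ND retinas and 10.1 to 34.8 in the others.

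**Figure D5:**
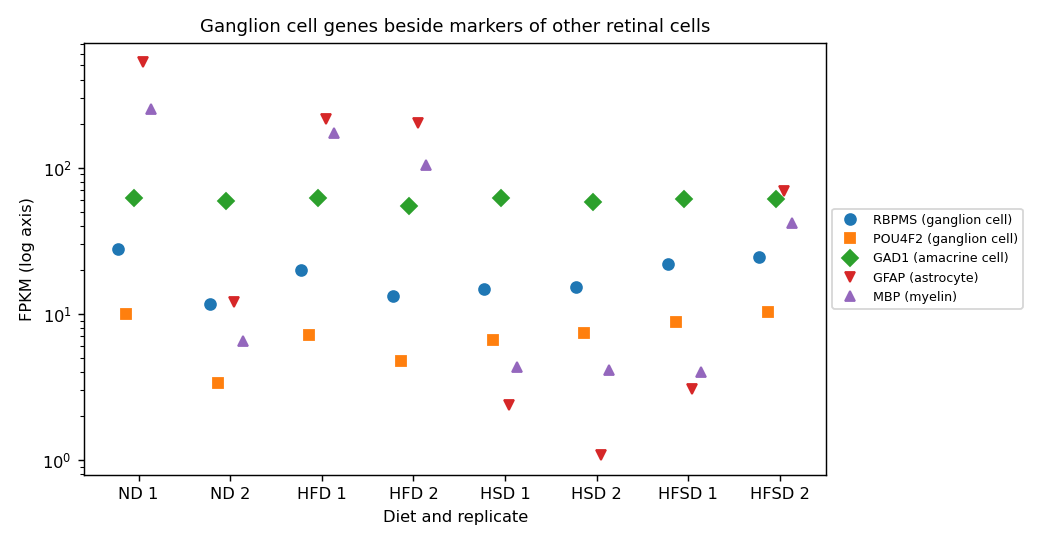
FPKM (y axis, log scale) of *RBPMS* and *POU4F2* beside markers of amacrine cells (*GAD1*), astrocytes (*GFAP*) and myelin (*MBP*) in each retina (x axis). *GAD1* stays between 54.7 and 62.0 FPKM, while *GFAP* runs from 1.08 to 524.

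The genes most like the mean of the 9 over the 8 libraries, among 9868 genes with a symbol, were *DMTN*, *FGF1*, *NRN1*, *CD99L2* and *C3orf84*, with Pearson's r between 0.976 and 0.988. These are descriptions over 8 libraries that share their diets and their ND retinas. *NRN1* encodes neuritin, a membrane-anchored protein that promotes neurite growth, and had 50.9 and 20.1 FPKM on ND, 36.2 and 27.8 on HFD, 29.7 and 24.5 on HSD, and 45.7 and 50.4 on HFSD. *FGF1*, acidic fibroblast growth factor, had 22.5 and 14.6 FPKM on ND, 21.1 and 17.3 on HFD, 17.1 and 16.4 on HSD, and 21.2 and 23.8 on HFSD. *DMTN* encodes an actin-bundling protein. Among the 9 themselves, each against the mean of the other 8, r was 0.976 for *STMN2*, 0.975 for *RBPMS* and 0.974 for *THY1*, and 0.519 for *NEFL* and 0.609 for *ISL1*.

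Wider lists of ganglion cell genes were described in the same fits. Of 32 listed transcription factors, 20 were tested. ND replicate 1 exceeded ND replicate 2 for 15 of the 20. In the sucrose comparison 18 of 20 were higher (48.7% of all genes), with a median of 0.25, and 5 had an unadjusted P under 0.05 and were higher (9.17% of all genes). With sucrose 11 of 11 cone (median 0.37) and 16 of 21 amacrine genes (median 0.07) were also higher, against 10 of 17 bipolar and 3 of 7 horizontal cell genes. Their part was not tested. *EBF3*, a factor of early ganglion cell differentiation, had between 5.41 and 7.17 FPKM in the 4 retinas without sucrose and between 8.09 and 9.11 in the 4 with it. The groups did not overlap, as in 6.39% of all genes, and the difference of 0.45 (95% interval 0.21 to 0.70) had an adjusted P of 0.116 (limma). Its relative *EBF2* lay near the filter, from 0.557 to 1.08 FPKM without and 1.38 to 1.75 with sucrose. It was tested only because retinas with sucrose reached 1 FPKM, so its difference is not independent of that choice. The difference was 0.49 (0.15 to 0.83, adjusted P=0.167, limma). *ISL2*, the paralog of *ISL1* found in ganglion cells that project to the opposite side of the brain, had 10.4 and 5.53 FPKM in ND and ran from 6.12 to 10.7 in the other diets, the ND retinas again spanning most of the range. The abundant *MYT1* (35.1 to 44.6 FPKM) and *SATB1* (22.2 to 47.6 FPKM) did not show it.

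*NR2F2* was the only gene of these wider lists with an adjusted P under 0.05 in any of the 6 contrasts planned. This nuclear receptor (COUP-TFII) had 9.30 and 15.5 FPKM on ND, 12.1 and 17.3 on HFD, 1.39 and 2.34 on HSD, and 1.83 and 3.82 on HFSD. With sucrose it fell (log2 difference −2.14, 95% interval −2.70 to −1.57, adjusted P=0.0274, limma), and the groups did not overlap (6.48% of all genes were lower in that way). Leaving out any of 5 retinas (HFD replicates 1 and 2, HSD replicates 1 and 2, and HFSD replicate 1), or dropping the filter on low values, ended the call, with adjusted P values (limma) of 0.0648 to 0.147, and the differences stayed between −2.33 and −1.94. *NR2F2* is not specific to ganglion cells, since it is also made by vascular, glial and amacrine cells. Of the Müller cell genes, 9 of 12 were lower with sucrose, 4 of them at an unadjusted P under 0.05 (9.16% of all genes), and *GLUL* had 1489 to 2127 FPKM without and 722 to 890 with sucrose. Of the myelin genes 12 of 12 were lower (median −1.30, 10 at that limit) and of the pigment epithelium genes 10 of 11 (median −1.18, 9 at that limit). Of the astrocyte genes 8 of 9 were lower (median −0.52, 3 at that limit), and *GJA1*, a gap junction protein, named after its value was seen, was the one called (log2 difference −2.80, adjusted P=0.0311, limma). Of the endothelial genes 7 of 10 were lower (median −0.57, 2 at that limit) and of the microglial genes 10 of 10 (median −0.51, 5 at that limit). The part of these cells in the value of *NR2F2* was not tested.

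Of 31 axonal and cytoskeletal genes, 27 were tested and none had an adjusted P under 0.05 in any contrast (limma). ND replicate 1 exceeded ND replicate 2 for 22 of the 27, and the interaction was above 0 for 25 of 27 (51.9% of all genes), with a median of 0.18. Its median was 0.07 without ND replicate 1 (18 of 27 above 0) and 0.31 without ND replicate 2 (25 of 27). The interaction was likewise above 0 for 15 of 17 bipolar (median 0.25) and 7 of 7 horizontal cell genes (median 0.19). It was so for 11 of 21 amacrine, 6 of 11 cone, 2 of 10 rod and 3 of 12 Müller cell genes. The part of these cells was not tested. *GAP43*, the growth-associated protein of extending axons, had 22.5 and 12.9 FPKM on ND, 22.3 and 19.1 on HFD, 21.4 and 21.4 on HSD, and 23.9 and 27.9 on HFSD. HFSD exceeded ND by 0.57 (0.03 to 1.11, adjusted P=0.606, limma), by 0.95 without ND replicate 1 and by 0.19 without ND replicate 2. *BASP1*, a related membrane protein of growth cones, had 82.7 and 77.5 FPKM in ND and 111 and 107 in HFSD, a difference of 0.44 (0.04 to 0.84, adjusted P=0.592, limma). *SPTB*, erythroid β-spectrin, differed by 0.41 with sucrose (0.12 to 0.71). The most abundant genes of the list, *TUBA1A*, *TUBB4A* and *CRMP1*, which build or bind microtubules throughout the nervous system, had means of 234, 163 and 119 FPKM, and *TUBA1A* ran from 204 to 276 FPKM. *INA*, the fourth neuronal filament subunit, named after its values were seen, ran from 73.9 FPKM in HSD replicate 2 to 107 in ND replicate 1.

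Of 42 genes for surface proteins, channels and synaptic receptors, 37 were tested, and 30 were higher with sucrose (median 0.26), 12 of them at an unadjusted P under 0.05 and none lower at that limit (of all genes 48.7% were higher, 9.17% at that limit). Cone genes were also higher with sucrose, 11 of 11 with a median of 0.37 and 8 at that limit, and their part in these values was not tested. The cone genes with an adjusted P under 0.05 (limma) were *OPN1SW*, the short-wavelength opsin, with a difference of 1.64 (adjusted P=0.00980, limma), and *PDE6C*, a cone phosphodiesterase subunit, with 0.71 (adjusted P=0.0311, limma), both named after their values were seen. Of the 37 genes, none had an adjusted P under 0.05 (limma). *SCN3B*, a sodium channel β subunit, had between 33.1 and 40.0 FPKM in the retinas without sucrose and between 43.3 and 61.4 in those with it. This difference of 0.46 (0.30 to 0.63) had an adjusted P of 0.0579 (limma), and adjusted P values from 0.0539 to 0.239 under the alternatives. *KCNC1*, a potassium channel of fast-spiking neurons, differed by 0.37 (0.18 to 0.57) in the same comparison. In HFD 30 of the 37 were lower than in ND, with a median of −0.18 and 5 at an unadjusted P under 0.05 (2.51% of all genes). Without ND replicate 1, 20 were lower and 17 higher (median −0.06), and without ND replicate 2, 31 were lower and 6 higher (median −0.38). In HFD 10 of 11 cone genes (median −0.23, 3 at that limit), 13 of 17 bipolar and 6 of 7 horizontal cell genes were also lower than in ND, and their part was not tested. *CHRNB3*, a nicotinic receptor subunit of ganglion cells, had 11.3 and 14.4 FPKM in ND and 5.07 and 5.42 in HFD, a difference of −1.14 (−1.75 to −0.53, adjusted P=0.907, limma). *NCAM1* and *JAM2*, which encode adhesion molecules also used by other retinal cells, were among the most abundant of the list and had means of 104 and 51.7 FPKM. *SLC17A6*, the vesicular glutamate transporter of ganglion cells, was chosen after its values were seen. It had 24.8 and 9.21 FPKM on ND, 15.3 and 16.8 on HFD, 18.0 and 16.5 on HSD, and 23.4 and 26.3 on HFSD, again with ND replicate 2 the lowest of the 8.

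Of 28 cytoplasmic and other ganglion cell genes, 18 were tested. ND replicate 1 exceeded ND replicate 2 for 17 of the 18. In HFSD, 16 of 21 amacrine and 10 of 11 cone genes were higher than in ND, against 9 of 17 bipolar and 3 of 7 horizontal cell genes. Their part was not tested. Of the 18 genes of this list, 16 were higher in HFSD than in ND (49.2% of all genes), 1 of them at an unadjusted P under 0.05 (8.07% of all genes). Without ND replicate 1, 15 were higher and 6 of them passed that limit, and without ND replicate 2, 10 were higher and 1 of them passed it. The gene that passed it with all retinas was *FGF12*, an intracellular regulator of sodium channels, with 41.8 and 16.1 FPKM in ND and 50.2 and 57.4 in HFSD. Its difference of 1.02 (0.17 to 1.86) had an adjusted P of 0.564 (limma). It was 1.68 without ND replicate 1 (adjusted P=0.0307, limma) and 0.36 without ND replicate 2 (adjusted P=0.775). *PVALB*, a calcium buffer of ganglion and AII amacrine cells, had between 68.6 and 95.7 FPKM without sucrose and between 49.1 and 66.1 with it. This difference of −0.52 (−0.80 to −0.24) had an adjusted P of 0.116 (limma). *RBFOX3*, which encodes NeuN, was low at 1.02 to 2.88 FPKM, and the most abundant genes of the list, *SNCB*, *SYT1* and *SNAP25*, are synaptic genes of many neurons, with means of 1044, 382 and 367 FPKM. *RBPMS2*, the paralog of *RBPMS*, also chosen after its values were seen, had 10.3 FPKM in ND replicate 1, 5.64 in ND replicate 2 and intermediate values in the other 6 retinas.

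Of 24 markers of ganglion cell subtypes, 18 were tested, and ND replicate 1 exceeded ND replicate 2 for 11. *SPP1*, osteopontin, which marks alpha ganglion cells and is also made by glia and macrophages, had 346 and 716 FPKM on ND, 566 and 466 on HFD, 242 and 217 on HSD, and 292 and 286 on HFSD. The sucrose retinas lay below all others, with a difference of −0.97 (−1.48 to −0.47, adjusted P=0.108, limma). It was −1.24 without ND replicate 1 (adjusted P=0.0190, limma) and −0.71 without ND replicate 2 (adjusted P=0.0711), and the adjusted P values of all alternatives ran up to 0.308. *KCNG4*, a potassium channel subunit of alpha ganglion cells, had 9.28 and 8.44 FPKM on ND, 12.2 and 15.6 on HFD, 10.4 and 9.04 on HSD, and 5.11 and 4.51 on HFSD. It was highest with fat alone and lowest with fat and sucrose, an interaction of −1.47 (−1.99 to −0.95, adjusted P=0.479, limma). *FSTL4* differed by −0.70 with sucrose (−1.08 to −0.32). *LMO2* ran from 67.0 to 119 FPKM and *SPON1* from 79.6 to 107. *OPN4*, melanopsin of the intrinsically photosensitive ganglion cells, named after its values were seen, ran from 0.821 to 2.11 FPKM.

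Of 30 genes of axon injury and neuron death, 21 were tested, and the median difference from ND was 0.03 with HFD, −0.16 with HSD and −0.13 with HFSD, and none had an adjusted P under 0.05 (limma). *CRYAB*, αB-crystallin, a small heat shock protein, had 208 and 187 FPKM on ND, 291 and 317 on HFD, 178 and 175 on HSD, and 123 and 171 on HFSD. With sucrose it differed by −0.61 (−0.89 to −0.34, adjusted P=0.0902, limma), with no overlap. *TNFRSF21*, which encodes the death receptor DR6, differed by −0.39 (−0.59 to −0.18) and *SARM1*, the executioner of axon degeneration, by 0.36 (0.14 to 0.57) in the same comparison. *SQSTM1* ran from 81.2 to 110 FPKM and *BCL2L1*, an inhibitor of apoptosis, from 74.7 to 86.6. *ATF3* and *JUN*, transcription factors induced when ganglion cell axons are cut, were chosen after their values were seen. *ATF3* had 53.5 FPKM in HFD replicate 2 and between 5.21 and 9.70 in the other 7 retinas, and *JUN* had 118 FPKM in ND replicate 1, 95.8 in HFD replicate 2 and at most 67.8 elsewhere.

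Of 19 genes of trophic support, 12 were tested and ND replicate 1 exceeded ND replicate 2 for 4 of them. None had an adjusted P under 0.05 (limma). *CNTF*, ciliary neurotrophic factor, had between 3.67 and 5.37 FPKM without sucrose and between 5.60 and 6.65 with it, a difference of 0.38 (0.13 to 0.63, adjusted P=0.161, limma). *IL6ST*, the gp130 subunit through which CNTF signals, differed by 0.36 (0.11 to 0.60, adjusted P=0.165, limma). *LIFR*, another subunit of the CNTF receptor, differed by −0.31 with fat (−0.54 to −0.08, adjusted P=0.9996, limma). *KDR* and *RET*, receptors of VEGF and of the GDNF family, had means of 113 and 22.6 FPKM.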

How the data were processed

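As the paper's methods state, low-quality 5′ ends were removed, TopHat2 placed the reads on a rabbit genome with up to 2 mismatches, multiply placed reads were dropped, and the authors calculated FPKM in R. The deposited values are FPKM per library, one column a retina, and 0 value columns lacked a sample. The genome build is not given in the sources used here, so no coordinates or sequences are printed. Genes were matched by symbol. FPKM values were used as log2(FPKM + 1) in limma 3.58.1 (R 4.3.3), with a mean-variance trend and 1 model of 8 libraries. The test covered protein-coding genes that reached 1 FPKM in 2 or more libraries, with Benjamini-Hochberg adjustment over all of them. Fold changes on this scale understate the change of genes with low FPKM. Fragments were recovered for 100% of 142752 values above 0, within 0.02 of a whole number, and were used for intervals of ratios and for voom. In data simulated for HSD against ND, with 200 of 12204 genes changed by a log2 of 2, 196 were called and 15 unchanged genes were called. The changed genes were drawn from those above a mean level that *POU4F1* and *POU4F2* did not reach. The change also exceeded every fitted difference of a member, so the simulation does not cover differences as small as theirs.

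The members and gene lists were chosen with earlier results of these data known. Named genes are the members, *POU4F3*, the 5 genes most like the members, and in each wider list the 3 highest, any called and up to 3 with the smallest P. Genes named after their values were seen are marked as such, and some genes are not reported here. Alternatives were another pseudocount, other filters, 2 rescalings, fits of only the groups compared, voom, no variance trend, a replicate block and each retina left out.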

Additional observations from a re-analysis of the deposited data

How the results depend on the processing

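No member had an adjusted P under 0.05 (limma or voom) under any alternative run, and the smallest, 0.0853, was that of *POU4F2* for sucrose without ND replicate 1. With 2 retinas a diet, 1 retina sets the sign of most member differences, and the genes with the fewest fragments, *POU4F1* and *POU4F2* (64 to 254 a library), have the widest intervals. Among settings that left out no single retina, including the fits of only the groups compared, 453 member values kept their direction and 6 turned: *POU4F2* in HFD was 0.013 with a pseudocount of 0.1 and 0.0053 with voom, *NEFL* in HFSD 0.015 rescaled to summed fragments and 0.018 with voom, and *ISL1* with sucrose 0.023 and 0.025 in these same fits. The cause was not tested.

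Left-out retinas turned 51 member values in the planned contrasts. The differences that turned, with those of *POU4F3*, which is no member, ran over the following ranges. For HFD they were *RBPMS* −0.74 to 0.45, *POU4F1* −0.75 to 0.54, *POU4F2* −0.67 to 0.65, *SNCG* −0.046 to 0.60, *THY1* −0.38 to 0.54, *NEFL* −0.081 to 0.21, *NEFH* −0.28 to 0.35, *STMN2* −0.33 to 0.46 and *POU4F3* −0.41 to 1.02. For HSD they were *RBPMS* −0.85 to 0.34, *POU4F1* −0.55 to 0.74, *POU4F2* −0.46 to 0.86, *THY1* −0.59 to 0.33, *NEFH* −0.59 to 0.033, *ISL1* −0.35 to 0.011, *STMN2* −0.48 to 0.31 and *POU4F3* −0.050 to 1.39. For HFSD they were *RBPMS* −0.25 to 0.94, *POU4F1* −0.022 to 1.27, *POU4F2* −0.064 to 1.26, *SNCG* −0.030 to 0.62, *THY1* −0.13 to 0.79, *NEFL* −0.16 to 0.13, *NEFH* −0.16 to 0.47 and *ISL1* −0.25 to 0.11. For the interaction they were *POU4F1* −0.017 to 1.28, *POU4F2* −0.26 to 1.06, *THY1* −0.085 to 0.84 and *POU4F3* −0.43 to 1.003. For sucrose they were *RBPMS* −0.18 to 0.41, *THY1* −0.18 to 0.29, *NEFH* −0.24 to 0.075, *ISL1* −0.11 to 0.075 and *STMN2* −0.061 to 0.33, and for fat *RBPMS* −0.068 to 0.53, *POU4F1* −0.11 to 0.53, *POU4F2* −0.14 to 0.52 and *ISL1* −0.14 to 0.036. In the comparison of HFSD with HFD, added after the data were seen, they were *SNCG* −0.24 to 0.27, *NEFL* −0.19 to 0.026, *NEFH* −0.025 to 0.26 and *ISL1* −0.023 to 0.30, and with HSD *ISL1* −0.029 to 0.23.

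The number of genes called over the whole table moved more. All 8 retinas gave 1 call with HFD, 7 calls with HSD, 2 with HFSD, 1 for the interaction, 42 for sucrose and 1 for fat. Without the filter on low values these became 13 for HFD, 4 for HFSD, 18 for the interaction, 27 for sucrose and 16 for fat. Fits of only the groups compared gave 2, 3 and 0 calls for the 3 diets in that order. With voom 2 were called in HSD, 4 in HFSD, 0 for the interaction and 18 for sucrose, and without the variance trend 2 in HSD, 0 for the interaction and 0 for fat. Rescaling to summed fragments gave 5 in HFSD and 0 for the interaction, and the interaction also had 0 with a pseudocount of 0.1 and with a filter on the mean. With retinas left out, the counts ran from 1 to 2 for HFD, 3 to 17 for HSD, 2 to 11 for HFSD, 0 to 10 for the interaction, 4 to 82 for sucrose, 0 to 5 for fat, 1 to 7 for HFSD against HFD and 0 to 11 for HFSD against HSD. By the fold limits of 0.65 and its inverse, with no test, 339 genes passed with HFD, 762 with HSD and 661 with HFSD, and 1533, 2311 and 2145 with a pseudocount of 0.1. Left-out retinas gave 629 to 777, 881 to 1116 and 831 to 1200.

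Same-numbered retinas of different diets shared little deviation (correlations of −0.165 to 0.081 over 12204 genes). This cannot tell whether they were handled together, which the labels do not say. A replicate block called 4 genes in HFSD, 0 for the interaction and 25 for sucrose, and no member.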
